A study of Mus musculus with 27 samples.

Results

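The metallothionein genes Mt1 and Mt2, the gene of their zinc-sensing regulator MTF1, and 3 metal transporter genes, Slc30a1, Slc30a10 and Slc39a14, were followed in mouse liver after a fast. These 6 genes were chosen by name, with earlier results of these data known. They are 6 of the 45706 genes in the deposited table, and each was measured in all 27 libraries. All mice carried the strain label C57/BLN6 and the genotype label WT, and all had fasted for 16 h. The 9 groups held 3 libraries each: refed mice, which were given food to eat, at 30, 60, 120 and 240 min; caged food mice, whose food was enclosed in a cage so that it could be perceived but not eaten, at the same 4 times; and fasted mice with no further treatment. The fasted group was sampled once, so comparisons with it are not matched in time. Comparing refed with caged food mice at one time asks what eating adds to the perception of food. Comparing caged food with fasted mice cannot separate perception from the further time that caged food mice spent without eating.

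Metallothioneins are small cysteine-rich proteins that bind zinc and copper ions and buffer them in the cytosol. When free zinc rises, the transcription factor MTF1 binds metal response elements (MREs) in the promoters of Mt1 and Mt2 and of the zinc exporter gene Slc30a1, and in liver the metallothionein genes are also induced by glucocorticoids and by inflammatory signals. Transporters of the ZnT family (Slc30 genes) move metal out of the cytosol, and those of the ZIP family (Slc39 genes) move it in.

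In GRCm38 with the GENCODE M21 annotation, Mt2 (ENSMUSG00000031762) spans chr8:94172664-94173568 and Mt1 (ENSMUSG00000031765) spans chr8:94179082-94180327, both on the plus strand and next to each other. Mtf1 (ENSMUSG00000028890) lies at chr4:124802104-124849800, Slc30a1 (ENSMUSG00000037434) at chr1:191906767-191913247 and Slc30a10 (ENSMUSG00000026614) at chr1:185454848-185468762, all on the plus strand. Slc39a14 (ENSMUSG00000022094) lies at chr14:70303469-70351425 on the minus strand.

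The promoters of the members that hold an MRE word are shown because both metallothionein genes and the transporter gene that rose after feeding are among them. Each is the 250 bases before the RefSeq transcription start in GRCm38.p6, read 5′ to 3′ on the plus strand, at chr8:94178839-94179088 for Mt1, chr8:94172368-94172617 for Mt2, chr1:191906531-191906780 for Slc30a1 and chr1:185454598-185454847 for Slc30a10. Capitals mark the MRE core, searched as TGCACNC or TGCGCNC on both strands.
Mt1: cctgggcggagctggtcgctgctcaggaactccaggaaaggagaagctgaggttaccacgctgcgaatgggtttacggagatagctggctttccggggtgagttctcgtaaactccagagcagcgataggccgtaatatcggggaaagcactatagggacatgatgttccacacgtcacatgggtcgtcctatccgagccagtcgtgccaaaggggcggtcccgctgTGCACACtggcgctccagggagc
Mt2: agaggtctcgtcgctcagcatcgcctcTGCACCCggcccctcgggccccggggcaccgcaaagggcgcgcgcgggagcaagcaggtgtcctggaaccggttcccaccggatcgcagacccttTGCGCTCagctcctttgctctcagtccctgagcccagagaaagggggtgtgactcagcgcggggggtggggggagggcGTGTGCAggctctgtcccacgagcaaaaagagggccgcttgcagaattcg
Slc30a1: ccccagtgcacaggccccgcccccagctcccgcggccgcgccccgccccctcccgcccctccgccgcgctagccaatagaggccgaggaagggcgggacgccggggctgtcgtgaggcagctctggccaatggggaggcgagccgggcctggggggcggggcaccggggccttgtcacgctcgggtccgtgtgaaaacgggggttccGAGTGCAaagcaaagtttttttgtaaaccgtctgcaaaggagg
Slc30a10: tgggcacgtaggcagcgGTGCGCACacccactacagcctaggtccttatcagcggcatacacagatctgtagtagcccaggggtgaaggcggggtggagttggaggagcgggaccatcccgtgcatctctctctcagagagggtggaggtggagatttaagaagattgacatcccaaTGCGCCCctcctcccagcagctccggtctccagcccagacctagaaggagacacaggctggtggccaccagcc
Within these windows Mt1 held 1 such word, 23 to 17 bases before the RefSeq start. Mt2 held 3, of which the nearest lay 50 to 44 bases before the start on the opposite strand. The Mt1 window ends at 94179088, inside the GENCODE gene, which starts at 94179082. The Mt2 window ends at 94172617, before its GENCODE start at 94172664. The counts therefore depend on the start taken. Sequence beyond the windows was not searched, so they do not give the total of MREs of a gene. Slc30a1 held 1 and Slc30a10 held 3, of which 2 overlap on opposite strands. The Mtf1 window held 0. At least 1 word occurred in 21.4% of 32851 mouse promoter windows of the same kind, and at least 3 in 1.26%. The antioxidant response word TGACNNNGC, searched on both strands, was found once each in the Mt2 and Slc30a1 windows and in 10.2% of all windows. Such a match describes the letters of the window and not bound protein.

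The values are read counts per gene that were normalised and rounded before deposit, with totals of 40654573 to 50037562 per library. The spacing of low values gave a rough depth of 25.6 to 52.4 M reads per library. Libraries of 1 group correlated at 0.979 to 0.991. The hepatocyte markers (6 of 6 in the table) summed to between 3226118 and 6112572 per library, and of the adipocyte markers Plin1 ranged from 0 to 9. For 2 libraries at 240 min, refed replicate 3 and caged food replicate 1, title and treatment label contradict each other, each naming a different one of the 2 treatments. They were grouped by title. On the 200 genes that best separated refed from caged food livers at 120 min, the 3 libraries titled refed scored 0.666 to 0.946 and the 3 titled caged food -0.601 to -0.514 (mean log2 difference towards refed). Results at 240 min therefore rest on the titles. Values without these 2 libraries are given beside the members called at that time and beside the counts of the gene lists, where this alternative was added after the data had been seen. Refed 30 min replicate 1 stood apart, with a pancreas acinar cell marker sum (9 of 9 markers) of 5213, while the other 26 libraries had 4 to 281. Caged food 60 min replicate 2 also stood apart, with a leukocyte marker sum (8 of 8 markers) of 2354, while replicates 1 and 3 had 472 and 623, and a Kupffer cell marker sum (7 of 7) of 32714, while those replicates had 11810 and 14049. Earlier work on these data also named replicate 1 of caged food mice at 30 min and replicate 3 of those at 120 min as standing apart. The former had a sinusoidal endothelium marker sum (6 of 6) of 24162, while replicates 2 and 3 had 17674 and 16588. Each marker sum of the latter lay within the range of the other 26 libraries. Leaving out all 4 named libraries kept the Mt2 calls at 120 and 240 min and ended some Mtf1 calls. In whole liver, fewer cells of a type and less RNA per cell cannot be told apart.

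From 120 min on, Mt2 was far lower in livers of refed mice than in livers of mice that perceived food without eating it. Its normalised read counts at 30 min were 4230, 4854 and 9422 in refed livers, against 5118, 3591 and 2433 in caged food livers. At 60 min they were 3284, 3713 and 2965 in refed livers, against 3604, 11961 and 4431 in caged food livers. The groups overlapped at both times. At 120 min the counts were 1362, 655 and 1087 in refed livers, against 5665, 5023 and 5712 in caged food livers. At 240 min they were 390, 340 and 612 in refed livers, against 7103, 9777 and 6364 in caged food livers. At both later times every refed library lay below every caged food library and below the fasted libraries, which had 4666, 2516 and 3454.

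The log2 fold change of Mt2 between refed and caged food livers was -2.46 ± 0.37 (SE, adjusted p = 9.35e-05) at 120 min and -4.13 ± 0.37 (adjusted p = 3.62e-08) at 240 min, by limma on log2(value + 1) with Benjamini-Hochberg adjustment over 15932 genes. The last of these is 0.0570 of the caged food level. Without the libraries of conflicting labels it was -4.43 ± 0.46 (adjusted p = 9.19e-07). Grouping those libraries by treatment label instead gave -1.78 ± 0.87 (adjusted p = 0.683), which ends the call, and it also ended the calls of Mt1, Mtf1 and Slc30a10 at 240 min. Against fasted livers the log2 fold change in refed livers was -1.79 ± 0.37 (adjusted p = 0.00177) at 120 min and -2.99 ± 0.37 (adjusted p = 3.43e-06) at 240 min, where it was -3.23 ± 0.42 (adjusted p = 1.09e-05, limma) without the libraries of conflicting labels. In caged food livers at 240 min Mt2 averaged 7748 ± 1796, against 3545 ± 1078 in fasted livers (SD, n = 3 each). Those libraries did not overlap, but the log2 fold change of 1.15 ± 0.37 did not pass the test over all genes (adjusted p = 0.994, limma).

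**Figure D1:**
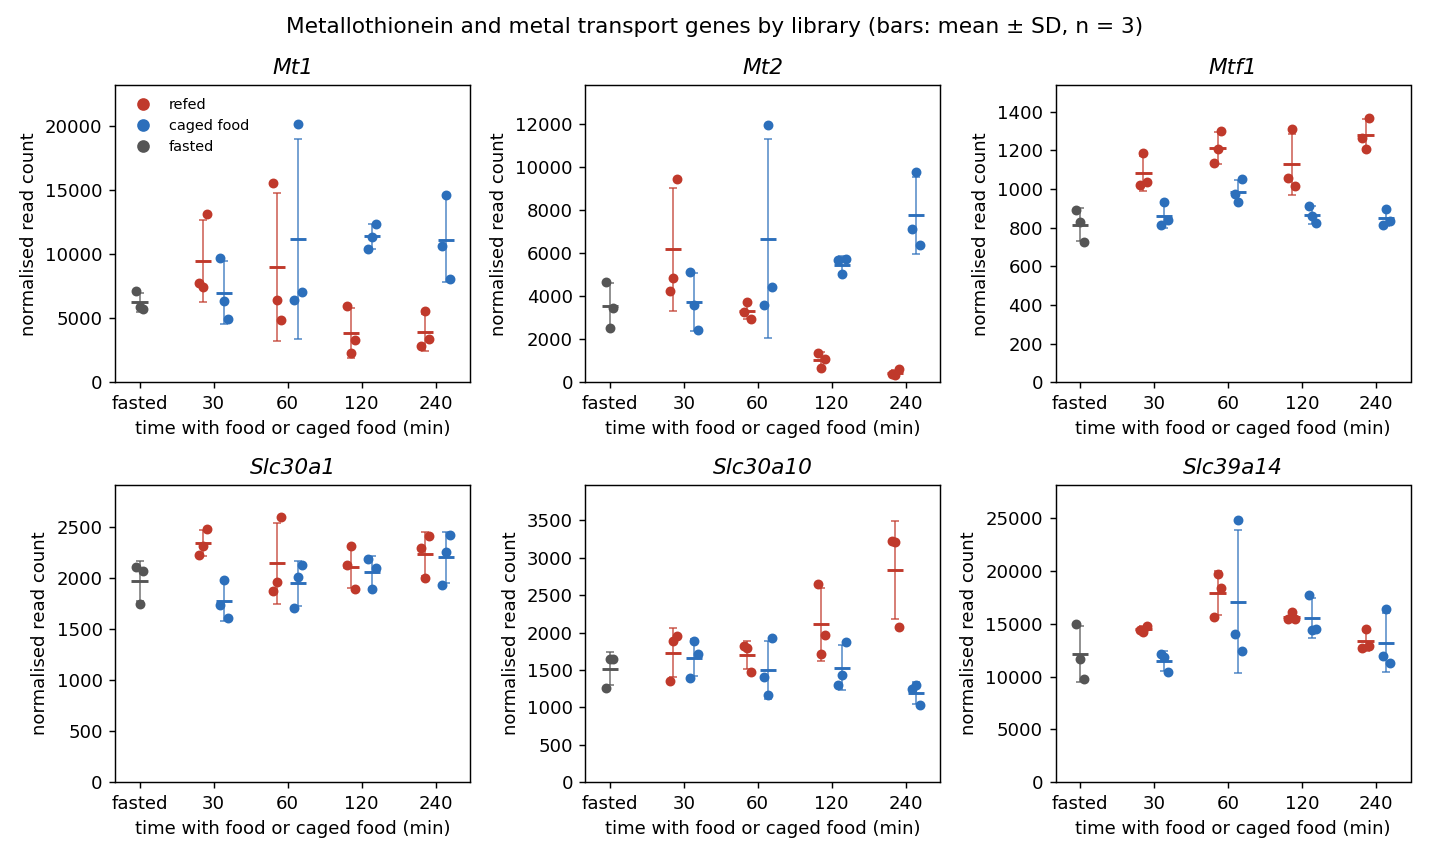
Normalised read count of each of the 6 genes (vertical axes, linear, from 0) in fasted, refed and caged food livers by time in minutes; each point is 1 library and bars are mean ± SD of 3. Mt2 in refed livers lies at 340 to 612 at 240 min, below the 6364 to 9777 of caged food livers, while Slc30a10 in refed livers lies above caged food livers at that time.

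Mt1 was also lower in refed than in caged food livers from 120 min on. At 30 min its counts were 7783, 7453 and 13111 in refed livers, against 9687, 6382 and 4915 in caged food livers. At 60 min they were 15556, 6418 and 4901 in refed livers, against 6388, 20155 and 7035 in caged food livers. These groups overlapped, and the highest count at 60 min in caged food livers, 20155, came from the library with raised leukocyte markers; the part of that library's other cells in its Mt1 count was not tested. At 120 min the counts were 5987, 2283 and 3272 in refed livers, against 10426, 11356 and 12357 in caged food livers. At 240 min they were 2823, 5530 and 3374 in refed livers, against 10652, 14623 and 8073 in caged food livers. Refed and caged food libraries did not overlap at either of the later times.

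The log2 fold change of Mt1 between refed and caged food livers was -1.68 ± 0.42 (adjusted p = 0.0101, limma) at 120 min and -1.53 ± 0.42 (adjusted p = 0.00874) at 240 min. The call at 120 min was lost without refed replicate 2 (-1.36, adjusted p = 0.0767). The call at 240 min was lost without refed replicate 1 (-1.32, adjusted p = 0.0533) and without the libraries of conflicting labels (-1.46, adjusted p = 0.0619). Against the fasted counts of 7086, 5891 and 5749, Mt1 in refed livers changed by -0.81 ± 0.42 at 120 min (adjusted p = 0.222) and by -0.73 ± 0.42 at 240 min (adjusted p = 0.227) on the log2 scale, which did not pass. The corresponding differences in caged food livers were 0.87 ± 0.42 at 120 min (adjusted p = 0.650) and 0.80 ± 0.42 at 240 min (adjusted p = 0.994). The lower Mt1 of refed livers was thus called against livers of the same time and not against the fasted group.

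Mt2 was also low relative to Mt1 in refed livers of the later times. The Mt2 count was 6.15% to 33.2% of the Mt1 count in the 6 refed libraries of 120 and 240 min, and 21.1% to 78.8% in the other 21 libraries. The lowest of those 21 was refed 60 min replicate 1, and without it the range was 42.7% to 78.8%. The ratio is not corrected for gene length and serves only to compare libraries. It was examined after the values had been seen and was not tested. None of the 1292 windows of 50 bases in the annotated Mt1 transcripts, and none of the 554 in those of Mt2, occurred in the other gene. Mt2 overlaps the predicted gene Gm45774 on the opposite strand, which has 0 rows in the table. The 2 other metallothionein genes, Mt3 at 0 to 15 and Mt4 at 0 to 1, were too low to test.

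**Figure D2:**
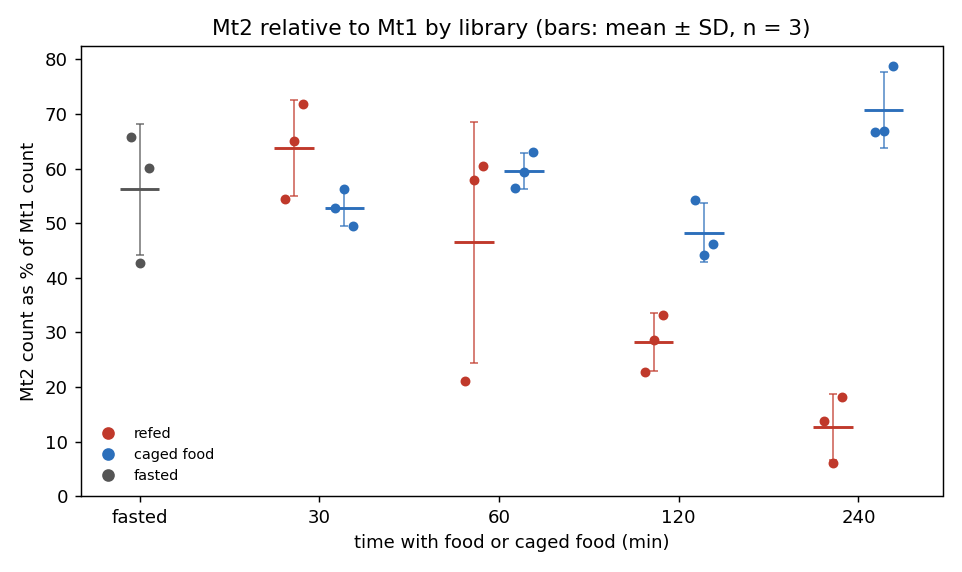
Mt2 count as a percentage of the Mt1 count (vertical axis, linear, from 0) in fasted, refed and caged food livers by time in minutes; each point is 1 library and bars are mean ± SD of 3. The 6 refed libraries of 120 and 240 min lie at 6.15% to 33.2%.

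Mtf1, the gene of the transcription factor that activates metallothionein genes, was modestly higher in refed than in fasted livers at every time, and higher than in caged food livers from 60 min on. Its counts in refed livers were 1022, 1186 and 1038 at 30 min, 1135, 1210 and 1299 at 60 min, 1057, 1311 and 1017 at 120 min, and 1263, 1206 and 1367 at 240 min. In caged food livers they were 815, 933 and 842 at 30 min, 976, 934 and 1053 at 60 min, 915, 862 and 824 at 120 min, and 815, 898 and 837 at 240 min. All refed libraries exceeded the caged food libraries of the same time, and all exceeded the fasted libraries, at 893, 830 and 725.

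The log2 fold change of Mtf1 between refed and fasted livers was 0.41 ± 0.10 at 30 min (adjusted p = 0.0272), 0.58 ± 0.10 at 60 min (adjusted p = 2.47e-04), 0.46 ± 0.10 at 120 min (adjusted p = 0.00183) and 0.65 ± 0.10 at 240 min (adjusted p = 2.92e-05, limma). Against caged food livers it was 0.32 ± 0.10 at 30 min (adjusted p = 0.253), 0.30 ± 0.10 at 60 min (adjusted p = 0.0477), 0.37 ± 0.10 at 120 min (adjusted p = 0.0126) and 0.59 ± 0.10 at 240 min (adjusted p = 7.60e-05). Without the libraries of conflicting labels the values at 240 min were 0.60 ± 0.11 against fasted livers (adjusted p = 4.38e-04, limma) and 0.51 ± 0.12 against caged food livers (adjusted p = 0.00449). The call at 30 min against fasted livers was lost without refed replicate 2 (adjusted p = 0.198), fasted replicate 2 (adjusted p = 0.0762) or fasted replicate 3 (adjusted p = 0.210). Against caged food livers the call at 120 min was lost without refed replicate 2 (adjusted p = 0.113) or caged food replicate 3 (adjusted p = 0.0575), and that at 60 min without any 1 of refed replicates 1, 2 and 3 and caged food replicates 1 and 2 (adjusted p = 0.0504 to 0.163). Without the 4 libraries named above as standing apart, the calls lost were those at 30 min against fasted livers (adjusted p = 0.0502) and at 60 and 120 min against caged food livers (adjusted p = 0.151 and 0.0586, limma). The same calls were lost in limma fits on the groups compared alone. There the adjusted p was 0.0563 at 30 min against fasted livers, and 0.183 and 0.0732 at 60 and 120 min against caged food livers. Mtf1 overlaps 1110065P20Rik on the opposite strand, whose count was 14.5% to 28.7% of that of Mtf1, and the strand setting used in counting is not given in the sources used here.

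Of the 2 members of the ZnT family, Slc30a10 was called and Slc30a1 was not. Slc30a1 encodes ZnT1, which exports zinc across the plasma membrane and is a classic MTF1 target, and it passed the test in none of the 12 comparisons. Its counts at 30 min were 2229, 2311 and 2482 in refed livers, against 1732, 1976 and 1605 in caged food livers. These groups did not overlap, and the log2 fold change was 0.41 with a 95% interval of 0.15 to 0.66 (unadjusted p = 0.00288, adjusted p = 0.261, limma), which did not pass over all genes. Its counts at 240 min were 2294, 2000 and 2412 in refed livers, against 1928, 2256 and 2422 in caged food livers. The groups overlapped at that time, and the log2 fold change was 0.02 with a 95% interval of -0.23 to 0.28 (adjusted p = 0.912, limma). Over all 27 libraries Slc30a1 ranged from 1605 to 2598, a 1.62-fold span, against an 8.83-fold span for Mt1 and a 35.2-fold span for Mt2. The opposite-strand gene 1700034H15Rik reached 0.529% to 2.31% of its count.

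Slc30a10, which despite its family exports manganese from hepatocytes, rose late after feeding. Its counts in refed livers were 1352, 1883 and 1957 at 30 min, 1822, 1801 and 1478 at 60 min, 2657, 1711 and 1972 at 120 min, and 3223, 3207 and 2074 at 240 min. In caged food livers they were 1398, 1889 and 1712 at 30 min, 1404, 1167 and 1930 at 60 min, 1297, 1431 and 1870 at 120 min, and 1250, 1304 and 1033 at 240 min. At 240 min each refed library lay above each caged food library and above the fasted libraries, at 1260, 1648 and 1646. The log2 fold change at 240 min was 1.22 ± 0.20 against caged food livers (adjusted p = 9.62e-05) and 0.88 ± 0.20 against fasted livers (adjusted p = 0.00267, limma). The lowest refed library, at 2074, is one with a conflicting label, and without both of those libraries the values were 1.47 ± 0.24 against caged food livers (adjusted p = 1.52e-04) and 1.09 ± 0.22 against fasted livers (adjusted p = 9.88e-04, limma). At 120 min the differences of 0.46 ± 0.20 against caged food livers (adjusted p = 0.168) and 0.46 ± 0.20 against fasted livers (adjusted p = 0.141) did not pass. The opposite-strand gene Gm2061 reached 1.45% to 4.78% of the Slc30a10 count.

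Slc39a14, which encodes ZIP14, an importer of zinc, iron and manganese in hepatocytes, differed from fasted livers at 1 time. Its counts at 60 min were 15683, 19757 and 18425 in refed livers, 14034, 24844 and 12409 in caged food livers, and 15000, 11653 and 9775 in fasted livers. Refed livers lay above fasted livers and overlapped caged food livers, whose highest library was again the one with raised leukocyte markers. The log2 fold change was 0.58 ± 0.18 in refed against fasted livers (adjusted p = 0.0436, limma) and 0.13 ± 0.18 in refed against caged food livers (adjusted p = 0.725). The call against fasted livers was lost without refed replicate 2 or 3 or fasted replicate 2 or 3 (adjusted p = 0.121 to 0.235). At 240 min Slc39a14 averaged 13371 ± 979 in refed livers and 13215 ± 2782 in caged food livers (SD, n = 3 each), a log2 difference of 0.03 with a 95% interval of -0.35 to 0.42.

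Counted over the 6 genes, calls in refed against caged food livers numbered 0 at 30 min (0.276% of all genes tested), 1 at 60 min (10.9%), 3 at 120 min (11.3%) and 4 at 240 min (27%). At 30 min, 2 members and 1199 of all genes had an unadjusted p under 0.05. In refed against fasted livers the calls numbered 1 at 30 min (1.63% of all genes), 2 at 60 min (11%), 2 at 120 min (14.1%) and 3 at 240 min (24.3%). In caged food against fasted livers 0 members were called by limma at 30 min (0.0126% of all genes), 60 min (0.22%), 120 min (0.0377%) and 240 min (0%). At an unadjusted p under 0.05 these counts were 0, 2, 0 and 1 members in the order of the times, and 1123, 1569, 1226 and 752 of all genes. Limma's F test over the 4 times called Mt1, Mt2 and Slc30a10 in refed livers (24.8% of all genes), 0 members in caged food livers (2.32%, with 1 member at an unadjusted p under 0.05) and again Mt1, Mt2 and Slc30a10 for the gap between livers of refed and caged food mice (9.97%). In refed livers the F test of Mt1 was lost without replicate 3 of 30 min, replicate 2 or 3 of 120 min or replicate 1 of 240 min (adjusted p = 0.0503 to 0.0733), and that of Slc30a10 without replicate 1 of 30 min, replicate 3 of 60 min or replicate 1 or 2 of 240 min (adjusted p = 0.0563 to 0.150). The first of these libraries, replicate 1 of 30 min, is the one with the pancreas marker sum of 5213. Without it the adjusted p of Slc30a10 was 0.0573 in refed livers and 0.0550 for the gap between treatments, and the part of those markers was not tested. The F test of Mt1 in refed livers was also lost without both libraries of conflicting labels (adjusted p = 0.0572, limma). That of Slc30a10 in refed livers was also lost without a filter on low values (adjusted p = 0.0510, limma).

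**Figure D3:**
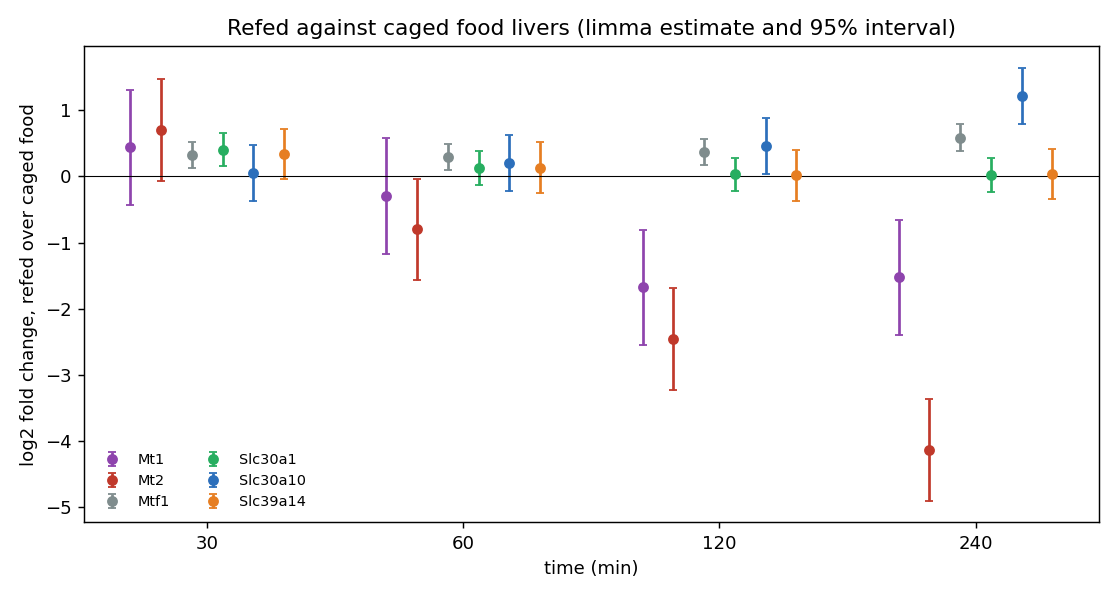
Log2 fold change of the 6 genes in refed over caged food livers (vertical axis) at 30, 60, 120 and 240 min (horizontal axis); points are limma estimates and bars 95% intervals. At 240 min Mt2 reaches -4.13 and Slc30a10 reaches 1.22, and Slc30a1 and Slc39a14 lie at 0.02 and 0.03.

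Per kilobase of annotated exon, the mean level over all 27 libraries was highest for Mt2 (7202 counts per kb) and Mt1 (6518), followed by Slc39a14 (1380), Slc30a1 (398), Slc30a10 (301) and Mtf1 (113). The exon length of Mt1 includes a retained intron of the annotation, so the order of Mt1 and Mt2 depends on the transcripts assumed. Among the 9 groups, Mt2 was highest in caged food livers of 240 min, followed by refed livers of 30 min and caged food livers of 60 and 120 min, and neighbours among these 4 differed by less than the spread within groups. Its lowest levels, in refed livers of 60, 120 and 240 min, were separated from each other by more than that spread. For Slc30a10 the highest group mean was that of refed livers of 240 min, 0.42 above that of refed livers of 120 min on the log2 scale. The next gap, 0.28, was about the size of the pooled within-group SD, also 0.28, and libraries of refed livers of 120 min overlapped other groups.

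Some other zinc transporter genes were called at 240 min. Of the 10 ZnT genes 9 were tested, and in refed against caged food livers at 240 min 2 rose and 0 fell, where 14.6% of all genes tested were called higher and 12.4% lower. Besides Slc30a10 this was Slc30a5, whose product loads zinc into the secretory pathway, at 3035 ± 405 in refed livers and 1963 ± 97.5 in caged food livers (SD, n = 3 each; log2 fold change 0.62 ± 0.12, adjusted p = 4.49e-04, limma). Of the 14 ZIP genes 13 were tested, and 3 rose and 0 fell. Without the libraries of conflicting labels, 3 ZnT genes and 2 ZIP genes rose and 0 fell, where 11% of all genes tested were called higher and 8.61% lower. The third ZnT gene was Slc30a6 (0.31 ± 0.10, adjusted p = 0.0340). Slc30a5 (adjusted p = 0.00271), Slc39a10 (1.06e-05) and Slc39a7 (0.0106, limma) kept their calls in that fit, and Slc39a2 did not (0.0799). The median log2 fold change was 0.16 over the ZnT genes and 0.10 over the ZIP genes, against -0.0045 over all genes.

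Slc39a10, which encodes the zinc importer ZIP10 and is repressed by MTF1, had counts of 437, 444 and 250 in refed livers at 240 min, against 100, 107 and 123 in caged food livers and 98, 106 and 94 in fasted livers. All refed libraries exceeded the others. Its log2 fold change against caged food livers was 1.73 ± 0.22 (adjusted p = 4.42e-06, limma) at 240 min and 1.17 ± 0.22 (adjusted p = 0.00112) at 120 min. Slc39a7, whose product releases zinc from the endoplasmic reticulum, rose by 0.78 ± 0.14 (adjusted p = 1.91e-04) at 240 min, and Slc39a2 rose by 0.75 ± 0.23 (adjusted p = 0.0166) at low counts of 79 to 111 in refed livers. In refed against fasted livers at 240 min, where 12.9% of all genes were called higher and 11.4% lower, 3 ZIP genes rose and 1 fell, namely Slc39a8 (-0.27 ± 0.08, adjusted p = 0.0165), which encodes ZIP8, a relative of ZIP14. Without the libraries of conflicting labels 2 ZIP genes rose and 0 fell, where 11.1% of all genes were called higher and 9.47% lower. Slc39a8 (adjusted p = 0.0573) and Slc39a2 (adjusted p = 0.0563, limma) were not called in that fit.

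**Figure D4:**
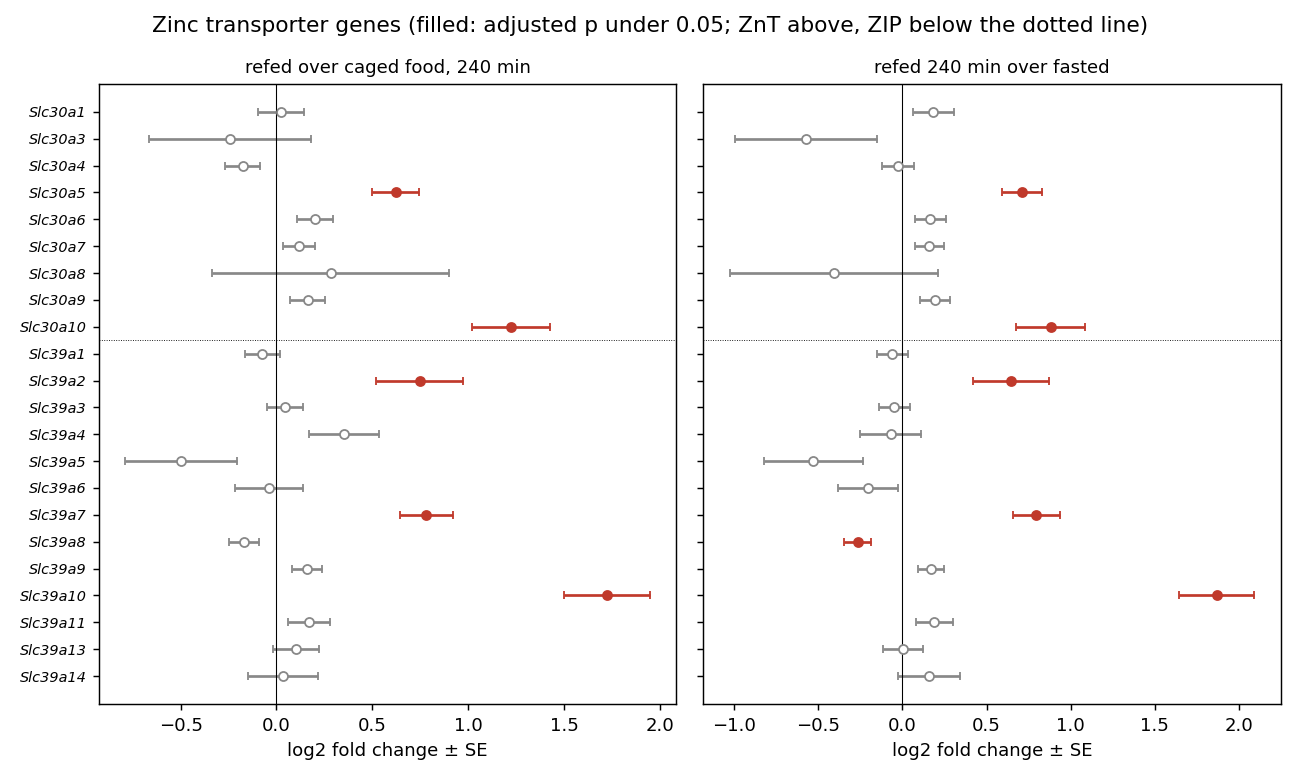
Log2 fold change ± SE (horizontal axes) of the tested ZnT and ZIP genes (rows) at 240 min in refed over caged food livers (left) and refed over fasted livers (right); filled points passed the test. Slc39a10 stands farthest to the right, at 1.73 and 1.87.

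Genes known as MTF1 targets moved in both directions. Of 8 listed genes 7 had a row and were tested, and in refed against caged food livers at 240 min 2 rose and 3 fell, where 14.6% of all genes tested were called higher and 12.4% lower. Those that fell were Mt1, Mt2 and Ndrg1, a stress-responsive gene (-0.66 ± 0.19, adjusted p = 0.0117, limma). Those that rose were Gclc and Slc39a10, of which Slc39a10 is repressed by MTF1. Gclc, the catalytic subunit of the enzyme that starts glutathione synthesis, averaged 15191 ± 3254 in refed livers and 7935 ± 476 in caged food livers (SD, n = 3 each; log2 fold change 0.92 ± 0.16, adjusted p = 1.55e-04, limma). Slc30a1 and Csrp1 (-0.14 ± 0.18, adjusted p = 0.621) were not called. Without the libraries of conflicting labels 2 rose and 1 fell, with Slc39a10 and Gclc (adjusted p = 7.29e-04, limma) still higher and Mt2 still lower, and Ndrg1 was not called (-0.43 ± 0.23, adjusted p = 0.200).

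Of 8 genes of manganese handling, 2 rose and 0 fell in refed against caged food livers at 240 min, where 14.6% of all genes tested were called higher and 12.4% lower. They were the member Slc30a10 and Slc11a2, which encodes the divalent metal importer DMT1, and both were also called without the libraries of conflicting labels. Slc11a2 counts were 2818, 2861 and 2552 in refed livers, against 1548, 1642 and 1674 in caged food livers, with no overlap (log2 fold change 0.76 ± 0.09, adjusted p = 2.72e-06, limma). Of 12 copper handling genes 11 were tested, and 1 rose and 2 fell, 3 called in all where 27% of all genes tested were called. Sco1, a copper chaperone of cytochrome oxidase, changed by 0.31 ± 0.11 (adjusted p = 0.0336), and the chaperone genes Ccs and Cox17 by -0.27 ± 0.09 (adjusted p = 0.0333) and -0.38 ± 0.11 (adjusted p = 0.00907). These 3 were not called without the libraries of conflicting labels (adjusted p = 0.107 to 0.134, limma).

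Some genes induced by glucocorticoids, which also induce metallothioneins, were lower in refed livers over the same times. Of 12 such genes, those lower in refed than in caged food livers numbered 0 at 30 min, 4 at 60 min, 8 at 120 min and 7 at 240 min, and 0 rose at any of these times (limma). The shares of all genes tested that were called lower were 0.069% at 30 min, 4.18% at 60 min, 5.3% at 120 min and 12.4% at 240 min. At 240 min the median over the list was -0.62 on the log2 scale. Sds, a serine-degrading enzyme, fell by 1.73 on the log2 scale (adjusted p = 1.72e-06, limma), and Pck1, a gluconeogenic enzyme, by 2.15 (adjusted p = 2.34e-06). Klf9 fell by 1.07 (adjusted p = 2.62e-06), and Per1, a clock gene, fell by 1.70 (adjusted p = 0.00147). Of the 7 genes lower at 240 min, 5 were called without the libraries of conflicting labels, these 4 among them. Fkbp5, Tsc22d3, Sgk1, Zbtb16 and Dusp1, also on the list, were not called in refed against caged food livers at 240 min. Pck1 and other members are also under other hormonal control, and the part of glucocorticoids in the metallothionein values was not tested. Of 18 acute phase genes, which mark the inflammatory signals that also induce metallothioneins, 5 rose and 0 fell in refed against fasted livers at 240 min, where 12.9% of all genes tested were called higher and 11.4% lower. They were Saa1 (3.37 ± 1.03, adjusted p = 0.0192), Saa2 (3.64 ± 1.22, adjusted p = 0.0319), Lcn2 (3.35 ± 0.93, adjusted p = 0.0107), Orm2 (2.79 ± 0.93, adjusted p = 0.0309) and Apcs (1.64 ± 0.44, adjusted p = 0.00763, limma). In refed against caged food livers at 240 min 1 rose (Apcs, 1.48 ± 0.44, adjusted p = 0.0138) and 0 fell, where 14.6% of all genes were called higher and 12.4% lower. Without the libraries of conflicting labels Apcs was the 1 acute phase gene called against fasted livers (adjusted p = 0.0207), and it was not called against caged food livers (adjusted p = 0.0657, limma). In caged food 60 min replicate 2 the median of that list lay 1.74 above the fasted mean on the log2 scale, and that library had the highest Mt1, Mt2 and Slc39a14 counts of the 27; the part of one in the other was not tested.

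**Figure D5:**
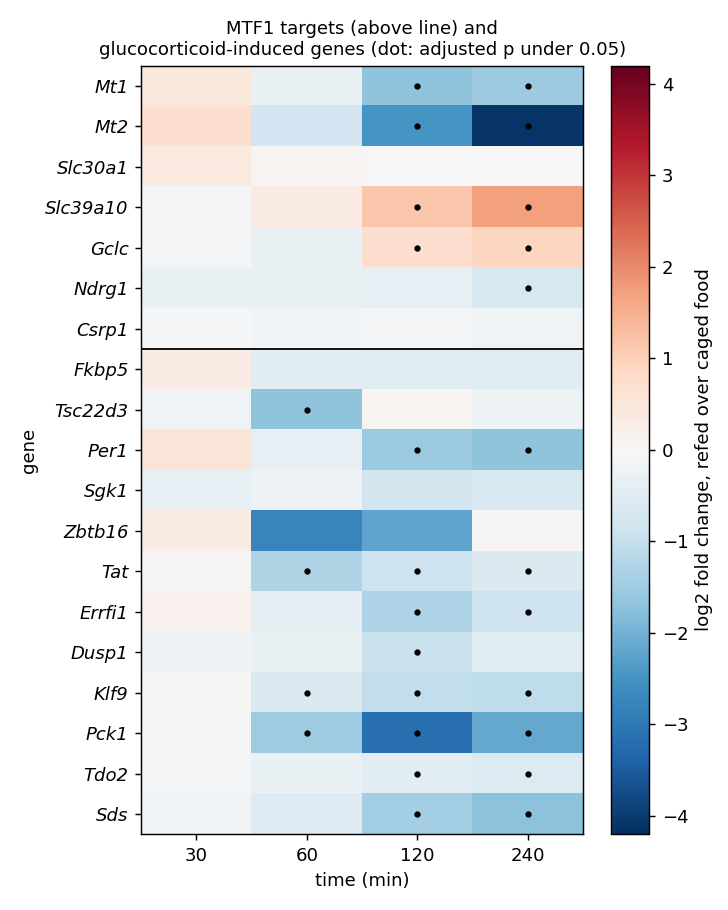
Log2 fold change in refed over caged food livers (colour) of MTF1 target genes (above the line) and glucocorticoid-induced genes (below it) at 30, 60, 120 and 240 min (columns); dots mark genes that passed the test. Mt2 is the deepest blue at 240 min (-4.13), and Slc39a10 is red (1.73).

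Over the 9 group means, the pattern of Mt1 was nearest to that of Gpcpd1, with a root mean square difference of 0.24 on the log2 scale where Mt1 itself varied by 0.58. Mt2 was nearest to Zbed5 (0.53) and Lpin2 (0.56), where Mt2 itself varied by 1.28, among 10985 genes compared. Lpin2, a phosphatidate phosphatase gene, averaged 4191 ± 510 in refed livers of 240 min and 16660 ± 2011 in caged food livers (SD, n = 3 each). Mt1 and Mt2 differed from each other by 0.76 on this measure, which also reflects how far each gene varied. Slc30a10 was nearest to Tmem150a (0.07), which averaged 6615 ± 410 in refed livers and 2914 ± 425 in caged food livers of 240 min. Slc39a14 was nearest to Hspb8 (0.06), a small heat shock protein gene, which averaged 12238 ± 661 in refed livers of 60 min and 8106 ± 830 in fasted livers. These likenesses are descriptions over 9 means that share their libraries.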

How the data were processed

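Liver mRNA of 27 libraries was sequenced with a stranded kit, per the labels' protocols. The submitters' processing notes name STAR 2.4.0a, featureCounts 1.4.5-p1 from Subread, and the builds mm10 and GRCm38. The deposited values are a score: normalised counts of reads per gene, rounded by the authors. How they were scaled is not given in the sources used here. Because these are not raw counts, no count model was fitted. Of 45706 identifiers, 45143 (98.8%) matched GENCODE M21.

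Depth was estimated from the spacing of low values, which normalisation leaves uneven. Tested on simulated data, the estimator failed for some scaling factors, so these depths are rough and may be wrong for single libraries. No test uses them.

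Libraries were grouped by title. Nothing beyond the design text, which speaks of biological replicates, says that replicates came from separate animals, so p-values measure the spread between these libraries. The design text gives 60 samples in all, and those beyond the 27 were not analysed here. A gene was tested if 3 or more libraries had a value of 10 or higher, which held for 15932 genes. On log2(value + 1), limma 3.58.1 (R 4.3.3) with a mean-variance trend was fitted to 9 group means, with two-sided tests of 12 comparisons and 3 F tests, adjusted by Benjamini-Hochberg over all genes and called at an adjusted p under 0.05. The fit was tested on simulated data.

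The members and the gene lists were chosen with earlier results of these data known. All 6 members are named, with up to 4 genes of lowest p from each list, plus the nearest genes by group means; further genes named from the lists were chosen after their values were seen. Promoter sequences came from RefSeq (GRCm38.p6), for 5 of the 6 members. The alternatives tried were a pseudocount of 5, testing genes of any level, quantile normalization, the replicate number as a block, fits on the groups compared alone, leaving out each library, both treatments of the conflicting labels (for the gene lists added after seeing the data), and leaving out the 4 libraries named as standing apart.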

Additional observations from a re-analysis of the deposited data

Results flagged for a closer look

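For 3 genes the gap between livers of refed and caged food mice itself varied over the 4 times, by limma's moderated F test on 3 contrasts with Benjamini-Hochberg adjustment over 15932 genes. For Mt2 the F value was 31.7 (adjusted p = 1.83e-05), and the call held in each of 31 alternatives that kept the grouping by title. For Slc30a10 the F value was 6.48 (adjusted p = 0.0317), and the call held in 23 of 31. For Mt1 the F value was 5.81 (adjusted p = 0.0442), and the call held in 10 of 31, with adjusted p up to 0.105. Grouping the libraries of conflicting labels by their treatment label ended the calls, with F values of 2.48 for Mt2, 1.06 for Slc30a10 and 2.79 for Mt1.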

How the results depend on the processing

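The Mt2 calls at 120 and 240 min, the Mtf1 calls against fasted livers from 60 min on and against caged food livers at 240 min, and the Slc30a10 calls at 240 min held in all alternatives that grouped libraries by title. Over all alternatives, 282 values of called members stayed called and 80 did not, 3 uncalled values became called, and 50 values of members not called changed sign. Against fasted livers the Mtf1 call at 30 min was kept in 7 of 12 alternatives and the Slc39a14 call at 60 min in 6 of 12; against caged food livers the Mtf1 call was kept in 2 of 12 at 60 min and in 8 of 12 at 120 min. The causes of these changes were not tested. Grouping the 2 libraries of conflicting labels by treatment label left 0 members called at 240 min in either comparison of refed livers and over the times, with 0 genes in refed against fasted livers, 1 in refed against caged food livers and 1 in caged food against fasted livers. Over the times it left 948 genes in refed livers, 128 in caged food livers and 43 for their difference. At 240 min the log2 fold change was then -0.030 for Mt2 in caged food against fasted livers, and -0.19 for Slc30a1 and -0.039 for Slc39a14 in refed against caged food livers. Leaving these 2 libraries out gave -0.13 for Slc30a1 and -0.0034 for Slc39a14 in that comparison, 1 gene in caged food against fasted livers and 212 over the times in caged food livers. Quantile normalization gave -0.028 for Slc30a1 in refed against caged food livers at 240 min, 19 genes in caged food against fasted livers at 60 min and 0 members in refed against caged food livers at 60 min. Without a filter on low values, members called were 1 in refed against fasted livers and 0 in refed against caged food livers at 60 min, and 1 for the difference over the times; caged food against fasted livers had 14 genes at 60 min and 1 at 240 min. Fitted on the groups compared alone, the members called were 0 at 30 min and 1 at 60 min against fasted livers and 0 at 60 min against caged food livers. The Mtf1 call at 120 min against caged food livers was also lost in that fit (adjusted p = 0.0732, limma). Genes called were then 1153 in refed against fasted livers at 60 min, 20 and 465 in refed against caged food livers at 30 and 60 min, 1, 0 and 0 in caged food against fasted livers at 30, 60 and 120 min, and 87 in caged food livers over the times. Without the 4 libraries named as standing apart, members called were 0 in refed against fasted livers at 30 min and 0 in refed against caged food livers at 60 min. Genes called were then 1, 13 and 0 in caged food against fasted livers at 30, 60 and 120 min, 20 in refed against caged food livers at 30 min and 152 over the times in caged food livers. In that fit the log2 fold change in caged food against fasted livers was -0.15 for Mt1 and -0.22 for Mt2 at 30 min, and 0.13 at 60 min and -0.14 at 120 min for Slc30a10; in refed against caged food livers it was 0.23 for Mt1 at 60 min and -0.032 for Slc39a14 at 120 min. With the replicate block, 20 genes were called in caged food against fasted livers at 60 min and 0 members in refed against caged food livers at 60 min, and the Mt1 call for the difference over the times was lost (adjusted p = 0.0520). Replicate numbers did not pair the libraries: over 108 pairs of equal number the mean residual correlation was -0.00944, and 8 of 27 libraries were nearest to one of their own number. Leaving out 1 library at a time, the genes called ranged from 89 to 200 at 30 min, 1131 to 1553 at 60 min and 1490 to 1838 at 120 min in refed against fasted livers, and from 8 to 31 at 30 min and 1111 to 1504 at 120 min in refed against caged food livers. In caged food against fasted livers they ranged from 2 to 5 at 30 min, 2 to 34 at 60 min and 0 to 9 at 120 min, and over the times from 219 to 356 in caged food livers and 1040 to 1662 for the difference. Members called ranged from 0 to 1 at 30 min and 1 to 2 at 60 min against fasted livers, from 0 to 1 at 60 min and 1 to 3 at 120 min against caged food livers, and from 1 to 3 over the times in refed livers and for the difference. Among uncalled values that changed sign when 1 library was left out, the log2 fold change in caged food against fasted livers ranged from -0.15 to 0.34 for Mt1, -0.22 to 0.32 for Mt2 and -0.21 to 0.10 for Slc39a14 at 30 min, -0.10 to 0.076 for Slc30a1 and -0.23 to 0.13 for Slc30a10 at 60 min, -0.020 to 0.13 for Slc30a1 and -0.14 to 0.12 for Slc30a10 at 120 min, and -0.020 to 0.13 for Mtf1 and -0.042 to 0.29 for Slc39a14 at 240 min. In refed against fasted livers at 60 min it ranged from -0.15 to 0.69 for Mt1, -0.28 to 0.17 for Mt2 and -0.035 to 0.20 for Slc30a1. In refed against caged food livers it ranged from -0.074 to 0.22 for Slc30a10 at 30 min; from -0.79 to 0.23 for Mt1, -0.017 to 0.22 for Slc30a1 and -0.063 to 0.44 for Slc39a14 at 60 min; from -0.036 to 0.11 for Slc30a1 and -0.034 to 0.11 for Slc39a14 at 120 min; and from -0.069 to 0.10 for Slc30a1 and -0.068 to 0.20 for Slc39a14 at 240 min.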
